A study of Mus musculus with 221 samples.

Results

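Hemogenic endothelium (HE) is endothelium whose cells leave the vessel wall as blood cells, a change called the endothelial-to-hematopoietic transition. In the mouse embryo HE lies in the dorsal aorta, in the aorta-gonad-mesonephros (AGM) region where hematopoietic stem cells arise, and in the yolk sac (YS), which makes the first erythro-myeloid and lympho-myeloid progenitors (EMP and LMP). The yolk sac HE is itself found in arteries and in a capillary plexus. The values below compare HE of the AGM (HE-AGM) with HE of the yolk sac plexus (HE-YSP), gene by gene and transcript by transcript.

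The cells were sorted from embryos of the GFI1-GFP and RUNX1B-RFP reporter lines, sired by C57BL/6JOlaHsd males on wild-type Hsd:ICR (CD-1) females, and received no treatment. Amplified complementary DNA (cDNA) of each cell, made by Smart-seq2, was read in full length on a nanopore sequencer in 3 runs. HE-AGM comprised the cells labelled as AGM cluster c3 (early, 29 cells kept) or c4 (late, 20 cells kept), and HE-YSP those of YS cluster b2 (early, 25 cells kept) or b3 (late, 24 cells kept). Cells with a total of at least 17595 estimated counts were kept, which left 49 of 51 HE-AGM cells and 49 of 53 HE-YSP cells. The series held 221 cells in all, of which these 98 are described here.

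The HE-AGM gate was RUNX1+ KIT- CDH5+ GFI1+/- CD41- CD45-, at E9.5 and E10.5 (E, embryonic day), although the stage of a single cell was given for only 1 kept cell (E10.5). The HE-YSP gate was RUNX1+ KIT+ CD31+ GFI1+/- CD41- CD45-, with 16 kept cells of E9, 13 of E9.5 and 20 of E10.5. The library names gave Gfi1 as the sorting reporter for 5 HE-AGM cells and 13 HE-YSP cells, Runx1 for 36 HE-YSP cells, and none for 44 HE-AGM cells. All 49 HE-YSP cells came from cDNA project GL69, whereas 43 HE-AGM cells came from project GL34, 5 from GL43 and 1 from GL36. Tissue, cDNA project and sort gate therefore cannot be told apart. No embryo or litter was named for a cell, so each population counted as 1 sample, no test was possible, and the intervals given (95%, exact Poisson or binomial) cover counting error only. Clusters were named by the study from short reads of the same cDNA, so genes that defined a cluster differ here by construction.

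The total of estimated counts per cell ranged from 30323 to 125339 (median 59311) in HE-AGM and from 18131 to 84052 (median 33297) in HE-YSP, and the median number of genes with an estimated count above 0 was 8243 and 6483. In each of the 3 runs between 15 and 17 cells of either population were kept. Both populations carried the endothelial genes: Cd34 stood at 618 and 595 CPM (counts per 1e6), Ramp2 at 755 and 1454 and Egfl7 at 356 and 486 CPM in HE-AGM and HE-YSP. The pan-blood gene Ptprc, which encodes CD45, was at 2 counts over all HE-AGM cells and 0 counts over all HE-YSP cells. In bulk sums of this kind, fewer cells with a transcript and less transcript per cell cannot be told apart, so the number of cells with at least 1 count is given for the main genes.

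RNA of other cell types was mostly low. Of the 12 mesenchyme markers and 16 yolk sac endoderm markers, 0 reached the level at which genes were compared, and the endoderm genes Alb, Ttr and Hnf4a were at 0 in both populations. The 10 macrophage markers summed to between 0 and 523 CPM per HE-AGM cell and between 0 and 424 CPM per HE-YSP cell, with Adgre1, Cx3cr1 and C1qa at 0. Their pooled sums were 91.0 CPM in HE-AGM and 100 CPM in HE-YSP. Most of this was Lyz2, the 1 macrophage marker compared, which was not called. The 13 erythroid markers summed to a median of 0 in both populations, with a highest cell of 12109 CPM in HE-AGM and 575 CPM in HE-YSP. One of them, the embryonic globin Hbb-y, was called higher in HE-AGM, where 9 cells held it against 3 in HE-YSP. The 11 megakaryocyte and platelet markers summed to between 0 and 1186 CPM in HE-AGM (median 215) and between 0 and 626 CPM in HE-YSP (median 163). Gp1bb and Gp5 were at 0 in both, while of the 4 markers compared 1 was called higher in HE-AGM and 2 in HE-YSP. Over all genes compared, these shares were 12.1% and 7.68%. The part of these transcripts in the results was not tested.

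A gene was compared when the mean of its pooled CPM in the 2 populations was at least 20, which held for 6156 genes. It was called when the pooled ratio, with 0.5 counts added to each sum, was at least 2-fold (1 on the log2 scale) and at least 2-fold in the same direction in each of the 3 runs. By this rule 747 genes (12.1%) were higher in HE-AGM and 473 genes (7.68%) were higher in HE-YSP. The genes with the largest ratios towards HE-AGM included arterial and Notch genes and von Willebrand factor, while those towards HE-YSP included the hyaluronan receptors Stab2 and Lyve1 and other uptake genes. As a yardstick from cells of a single cDNA project, the yolk sac arterial HE (HE-YSA, 52 cells) differed from HE-YSP at 87 genes (1.59%) higher in HE-YSA and 85 genes (1.56%) higher in HE-YSP, of 5463 compared. Of the HE-YSA cells, 2 carried AGM in their library names and 1 came from the AGM project GL43; without these 3 cells the counts were 89 and 83. In the AGM, HE-AGM differed from cluster c5 (labelled HE-Hb, 21 cells of GL34) at 293 genes (4.66%) higher in HE-AGM and 83 genes (1.32%) higher in c5, of 6284 compared.

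**Figure D1:**
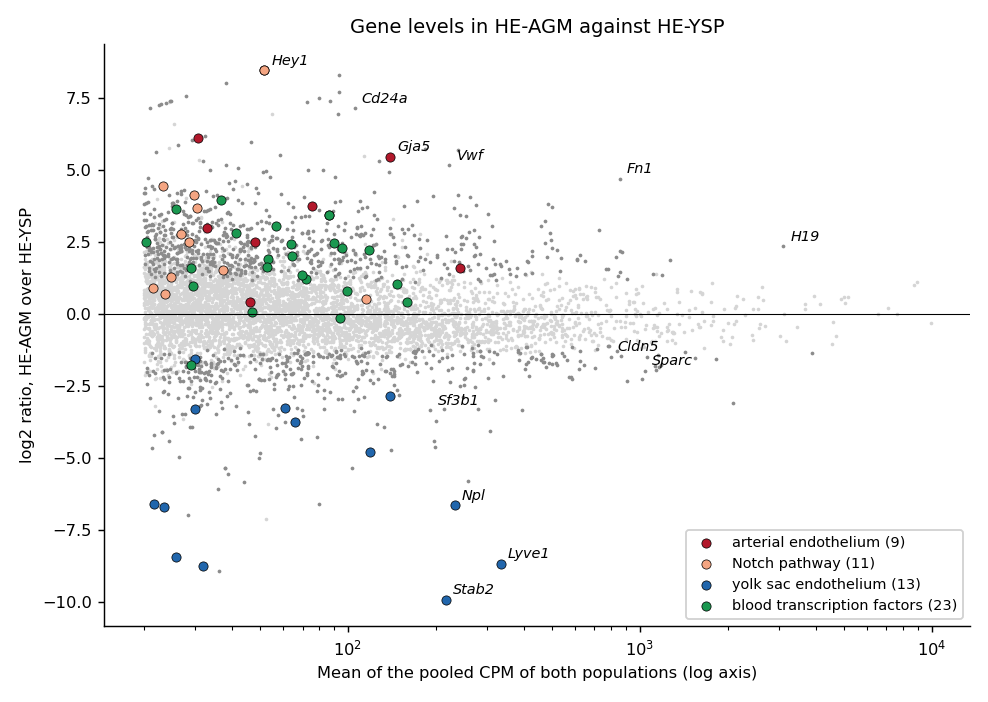
Each point is 1 of the 6156 genes compared, with the mean of the pooled CPM of HE-AGM and HE-YSP on a log axis and the log2 ratio of HE-AGM over HE-YSP on the vertical axis; dark grey points were called. Coloured points are the compared members of 4 lists; all 13 yolk sac endothelium genes lie at or below a log2 ratio of -1.57, while the 23 blood transcription factors, Gfi1b apart, lie between -0.13 and 3.96.

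The ratio depended on the length of the transcripts, and this bears on each count that follows. The length of a gene was the mean of its transcript lengths weighted by the pooled counts of both populations. It is therefore not independent of the ratios, and how far this enters the slope was not tested. When the compared genes were divided by mean transcript length into 10 bins of equal size, the median log2 ratio of HE-AGM over HE-YSP lay between -0.46 and -0.15 in the 6 shorter bins and climbed to 0.18, 0.54, 0.87 and 1.22 in the 4 longer ones. In the longest bin, whose genes had a median transcript length of 4874 bases, 30.4% of genes were called higher in HE-AGM and 1.14% higher in HE-YSP. In the fourth bin, with a median of 1075 bases, these shares were 7.14% and 15.4%. No such slope appeared between HE-YSA and HE-YSP, where the bin medians stayed between -0.06 and 0.03, and a shallower one appeared between HE-AGM and c5, from -0.25 to 0.35.

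The same was seen in single cells. The mean length of the transcripts to which a cell's counts were assigned ran from 1240 to 1859 bases in HE-AGM (median 1477) and from 994 to 1353 bases in HE-YSP (median 1156), and 40 of the 49 HE-AGM cells lay above the highest HE-YSP cell. It had a median of 1159 bases in HE-YSA and 1303 bases in c5. Whether the difference in length belongs to the tissue or to the cDNA project cannot be told apart, since HE-AGM and HE-YSP have no project in common. A single cell labelled HE-YSA came from the AGM project GL43. Its mean length was 1152 bases, within the range of the HE-YSP cells, whereas the 5 HE-AGM cells of GL43 ran from 1544 to 1859 bases.

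Ratios were therefore also taken relative to the median of genes of like length, that is, of the same bin, an alternative chosen after seeing the data. On this scale 568 genes (9.23%) were higher in HE-AGM and 371 genes (6.03%) were higher in HE-YSP. Both counts are given below for many of the gene lists, and log2 ratios are unadjusted unless they are said to be relative to length. Where a list has only the unadjusted count, the count relative to length may differ.

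**Figure D2:**
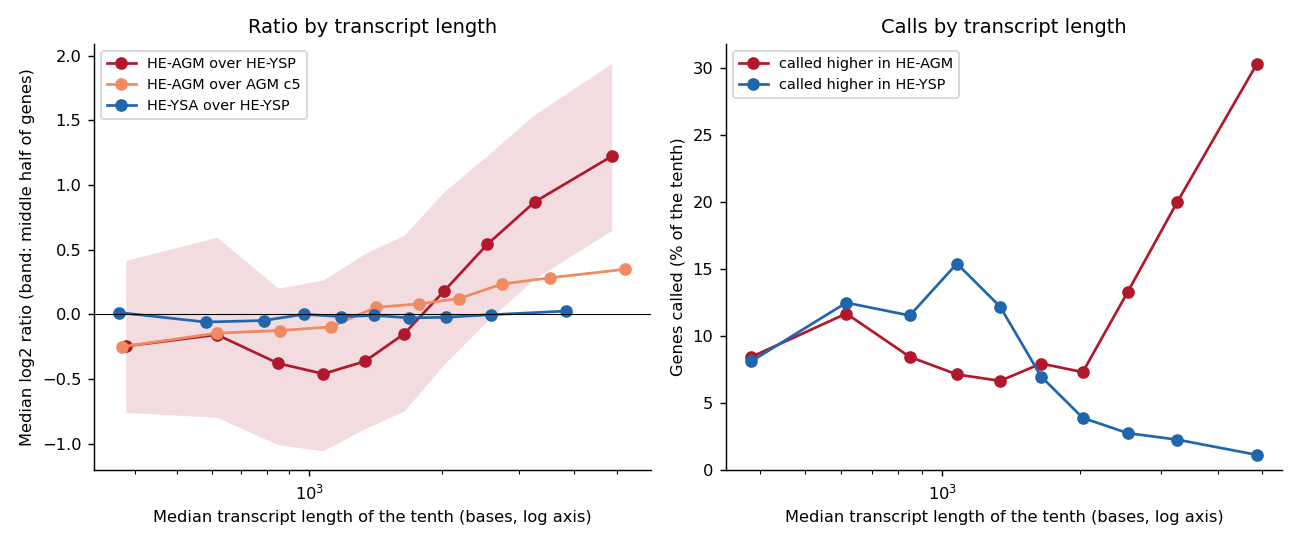
Left, the median log2 ratio of the genes in each of 10 bins of transcript length (log axis, bases) for 3 comparisons, with a band for the middle 50% of genes in HE-AGM over HE-YSP; right, the percent of genes in each bin called higher in HE-AGM or in HE-YSP. The HE-AGM over HE-YSP medians reach 1.22 in the longest bin, while those of HE-YSA over HE-YSP stay between -0.06 and 0.03.

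Among protein-coding genes, the largest ratios towards HE-AGM belonged to regulators and surface proteins that were all but missing from HE-YSP. Hey1 (ENSMUSG00000040289.9), a transcriptional repressor switched on by Notch signalling, ran from 0 to 424 CPM over HE-AGM cells with a median of 47.3 CPM, and was at 0 in all 49 HE-YSP cells. It was found in 30 of 49 HE-AGM cells. Its pooled level of 104 CPM in HE-AGM was at least 57.7-fold higher, taking 3 counts over the population as the limit that a count of 0 allows. Skil, which encodes the SMAD repressor SnoN, was likewise at 0 in HE-YSP and at 102 CPM in HE-AGM (36 cells), at least 57.1-fold higher.

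The next genes had only 1 or 2 counts in all of HE-YSP. Cebpb, a bZIP transcription factor of myeloid cells, stood at 186 CPM in HE-AGM (35 cells) and 0.598 CPM in HE-YSP, a ratio of 311 (counting interval 55.6 to 12297). For Ctsh, a lysosomal cathepsin, the levels were 159 and 0.598 CPM, and for Ccnd2, a D-type cyclin, 144 and 0.598 CPM. Cd24a, a small surface glycoprotein used to sort progenitors, ran from 0 to 972 CPM (median 136) over HE-AGM cells, with 42 cells positive, while 1 HE-YSP cell held it. The ratio was 176 (48.4 to 1452).

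The endothelial members of this group had broad ranges across HE-AGM cells. Vwf, the von Willebrand factor stored in endothelial granules, ran from 0 to 1273 CPM over HE-AGM cells (median 384, 47 cells positive) and reached 349 CPM in 1 of only 4 positive HE-YSP cells. The pooled ratio was 36.3 (23.4 to 59.6), and the populations overlapped, since those 4 cells lay within the range of HE-AGM. Gja5, the arterial gap junction protein connexin 40, was found in 33 HE-AGM cells with up to 2107 CPM and in 2 HE-YSP cells, a ratio of 45.6 (24.7 to 95.5). Itgb3, integrin beta 3, which pairs with the CD41 chain on platelets, was positive in 40 HE-AGM cells and 4 HE-YSP cells.

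The remaining genes of the leading 12 were Pdcd4, an inhibitor of translation initiation, Tnfaip2, and Paip1, which binds the poly(A)-binding protein. Pdcd4 ran from 0 to 1405 CPM over HE-AGM cells (median 339, 48 cells positive) and from 0 to 66.7 CPM over HE-YSP cells (8 cells positive). Paip1 was found in 46 HE-AGM cells and 4 HE-YSP cells, at pooled levels of 102 and 2.99 CPM. In the yolk sac arterial HE the levels of these 12 genes lay between 8.397 CPM (Paip1) and 244 CPM (Gja5), above the HE-YSP level for each of them. Relative to genes of like length, the log2 ratios of the 12 genes still lay between 3.92 (Vwf) and 7.90 (Hey1).

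**Figure D3:**
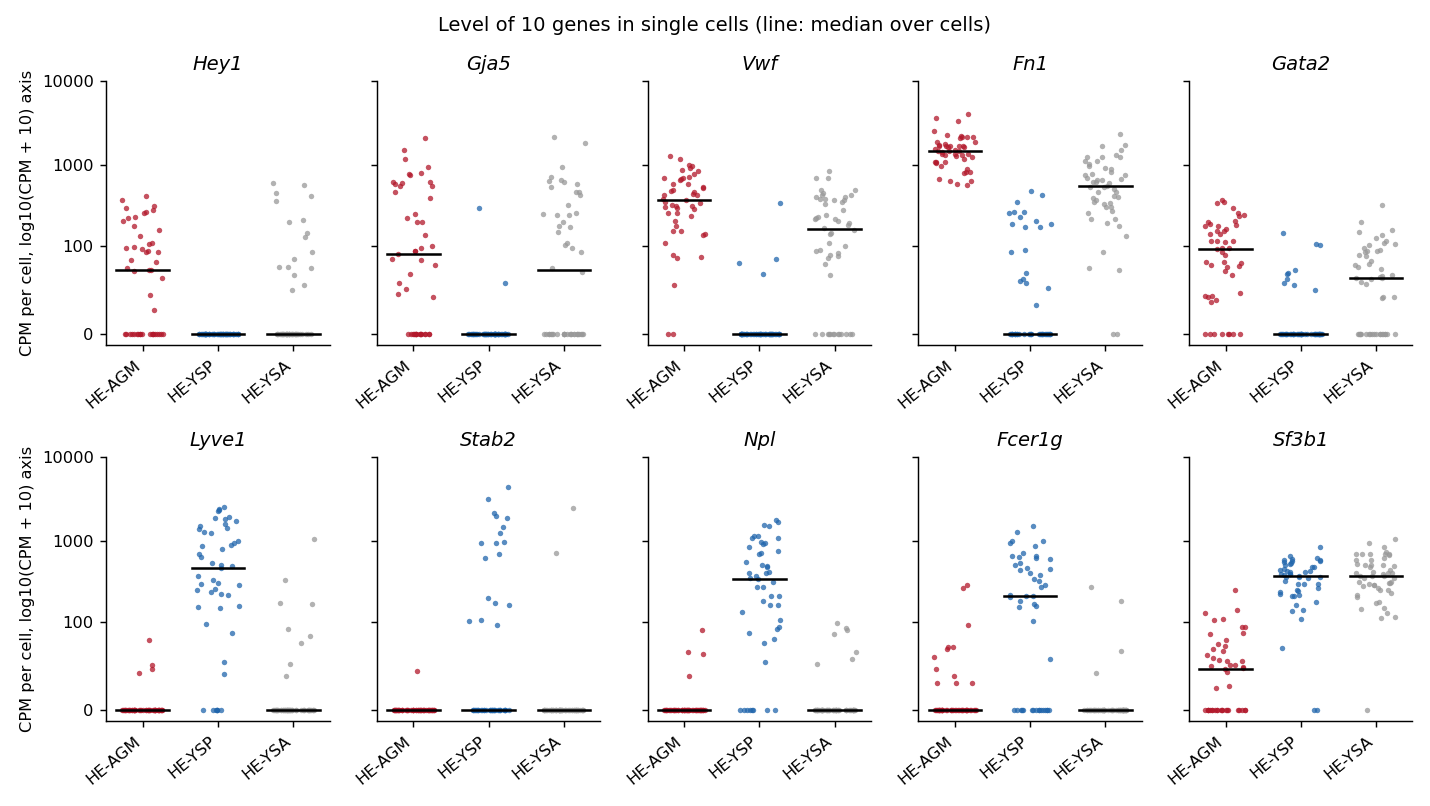
Each point is 1 cell, with its CPM on a log10(CPM + 10) axis and a line at the median over cells, for 10 genes in HE-AGM (49 cells), HE-YSP (49 cells) and HE-YSA (52 cells). Hey1, Gja5, Vwf, Fn1 and Gata2 sit higher in HE-AGM and HE-YSA than in HE-YSP, Lyve1, Stab2, Npl and Fcer1g are mostly limited to HE-YSP, and Sf3b1 is low in HE-AGM and high in both yolk sac populations.

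Arterial identity in the embryo is set up by VEGF and Notch signals. Of the study's 20-gene arterial signature, 9 genes reached the level at which genes were compared, 7 were called higher in HE-AGM and 0 in HE-YSP, with a median log2 ratio of 3.43 against 0.09 over all genes compared. Relative to genes of like length, 6 remained called and the median was 2.21. The signature was chosen by the study that also named these clusters, so its direction is no independent evidence. Besides Hey1 and Gja5 the called genes were Synpo, Efnb2, Mecom, Unc5b and Epas1.

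Efnb2 encodes ephrin-B2, the ligand that marks arterial against venous cells. It ran from 0 to 859 CPM in HE-AGM (median 120, 37 cells positive) and was found in 4 HE-YSP cells, a pooled ratio of 13.8 (8.54 to 23.9). Mecom, a zinc finger regulator needed by stem cells, stood at 158 CPM in HE-AGM (40 cells) and 14.4 CPM in HE-YSP (7 cells). Unc5b, a netrin receptor, measured 58.9 and 7.18 CPM and Epas1, the hypoxia-inducible factor HIF-2alpha, 82.0 and 14.4 CPM. Gja4, connexin 37, was present in both populations, at 366 and 120 CPM, and did not meet the rule. Other arterial genes were too low to be compared, such as Bmx, Tmem100 and Cxcr4, which had 49, 87 and 27 counts in HE-AGM and 0 in HE-YSP.

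Notch receptors are activated by ligands on neighbouring cells and act through RBPJ on Hes and Hey genes. Of the 18 genes of the Notch signature, also the study's own, 11 were compared, and 6 were higher in HE-AGM and 0 in HE-YSP, with a median log2 ratio of 2.50. Only 3 of the 6, namely Hey1, Hes1 and Jag2, were called relative to length, where the median was 1.28. The ligand gene Jag2 was positive in 28 HE-AGM cells and 2 HE-YSP cells, at 56.5 and 2.99 CPM. The receptor gene Notch1 stood at 48.96 and 8.37 CPM, and its log2 ratio went from 2.50 to 1.28 relative to length. Rbpj measured 47.2 and 6.58 CPM, the target Hes1 44.8 and 1.79 CPM, and the feedback inhibitor Nrarp 56.8 and 4.19 CPM. Notch4, at 35.4 and 14.4 CPM, and the fringe enzyme Mfng, at 136 and 94.8 CPM, were not called. Notch2 and Notch3 were too low to be compared, with 52 and 45 counts in HE-AGM and 0 counts in HE-YSP.

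Transcription factors of the blood lineage drive the endothelial-to-hematopoietic transition. Of the 28 in the list, 23 were compared, 12 (52.2%) were called higher in HE-AGM, beside 12.1% of all genes, and 0 in HE-YSP, and the median log2 ratio was 1.91. Relative to length, 9 were called and the median was 1.37. Gata2, required for the emergence of stem cells, ran from 0 to 380 CPM over HE-AGM cells (median 90.9, 41 cells positive) and from 0 to 148 CPM over HE-YSP cells (10 cells positive). Its ratio was 8.51 (5.42 to 14.1).

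Zfpm1, the GATA cofactor FOG1, stood at 69.7 and 4.19 CPM, and Tal1, a founder of the blood lineage, at 48.1 and 3.59 CPM. The factor of myeloid fate Spi1 (PU.1) was at 195 and 41.9 CPM and Nfe2 at 152 and 27.5 CPM. Myb, needed for definitive progenitors, was at 103.3 and 25.7 CPM, and Cbfb, the partner of RUNX1, at 84.4 and 22.1 CPM. Not all members took part: Lyl1 measured 182 and 136 CPM, Meis1 126 and 73.0 CPM, Erg 48.1 and 46.1 CPM and Myc 89.8 and 98.1 CPM. Gfi1b pointed the other way, at 13.2 CPM in HE-AGM and 44.9 CPM in HE-YSP, without meeting the rule.

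Runx1, the factor that both sorts select on, was detected in 30 HE-AGM cells and 5 HE-YSP cells, with 242 and 17 counts. Its log2 ratio was 2.80 pooled but 0.54 in run 1, against 5.72 and 5.46 in runs 2 and 3, so it was not called. Gfi1, a direct target of RUNX1 and the other reporter, was called higher in HE-AGM, at 108 and 19.7 CPM (38 and 11 cells). Kit was higher in HE-AGM as well, at 166 and 65.8 CPM, a ratio of 2.52 (2.05 to 3.12), although the HE-AGM gate took KIT- cells and the HE-YSP gate KIT+ cells. In single cells Kit ran from 0 to 740 CPM in HE-AGM (40 cells positive) and from 0 to 479 CPM in HE-YSP (22 cells positive).

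Cdh5, the endothelial cadherin that was part of the HE-AGM gate alone, was found in all 49 HE-AGM cells and 36 HE-YSP cells, at 586 and 223 CPM. Pecam1 (CD31) measured 246 and 156 CPM and was not called. Itga2b, which encodes CD41, measured 21.6 and 43.1 CPM with 16 positive cells in each population, and its log2 ratio went from -0.99 pooled to 0.25 in the late clusters. Of the study's 8 genes common to all HE, 7 were compared, and Gfi1 and Hapln1 were called higher in HE-AGM. Mycn (198 and 97.5 CPM), P2ry1 and Neurl3 were not called, and Ttpa was too low to be compared. Relative to length, the median log2 ratio of the 7 genes went from 1.02 to 0.40, and the ratios of Kit and Hapln1 went to 0.11 and 0.08. On that scale the signs of Pecam1, Neurl3 and P2ry1 turned, with log2 ratios of -0.22, -0.19 and -0.01.

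General endothelial genes did not lean to either side in unadjusted ratios. Of 25 such genes 23 were compared, 3 were called higher in HE-AGM (Cdh5, Tie1 and Nos3) and 2 in HE-YSP, and the median log2 ratio was -0.07. Relative to length, 0 were called higher in HE-AGM and 3 in HE-YSP, beside 9.23% and 6.03% of all genes, with a median of -0.25. Cldn5, the tight junction protein claudin-5, stood at 420 CPM in HE-AGM and 1171 CPM in HE-YSP, and Sox18, a transcription factor of endothelium and lymphatics, at 165 and 405 CPM. Tie1 turned from a log2 ratio of 1.14 to -0.09 relative to genes of like length. Kdr, the main VEGF receptor, was at 71.2 and 83.1 CPM and Tek at 114 and 154 CPM.

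The plexus side of the comparison was led by receptors and enzymes of uptake. Stab2, a scavenger receptor that clears hyaluronan, had 723 counts in HE-YSP and 1 count in HE-AGM, a ratio of 1440 (258 to 56945). It was found in 18 HE-YSP cells, with a median of 0 and a highest cell of 4419 CPM, and in 1 HE-AGM cell. Lyve1, the hyaluronan receptor known from lymphatic and liver sinusoidal endothelium, ran from 0 to 2534 CPM over HE-YSP cells (median 475, 42 cells positive) and was held by 4 HE-AGM cells. Its pooled levels were 667 CPM in HE-YSP and 1.502 CPM in HE-AGM, a ratio of 444 (190 to 1370). In HE-YSA, Lyve1 was at 39.4 CPM with 9 of 52 cells positive and Stab2 at 68.7 CPM with 2 cells positive.

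Npl, which cleaves sialic acid, ran from 0 to 1756 CPM over HE-YSP cells (median 345, 41 cells positive) and was found in 4 HE-AGM cells, a ratio of 102 (61.6 to 184). Hpgd, which inactivates prostaglandins, was found in 33 HE-YSP cells and 2 HE-AGM cells, at 157 and 1.502 CPM. Fcgrt, the neonatal Fc receptor that rescues IgG and albumin, stood at 230 CPM in HE-YSP (22 cells) and 8.11 CPM in HE-AGM (4 cells). The HE-AGM median was 0 for Npl, Hpgd and Fcgrt, but the HE-YSP median of Fcgrt was 0 as well.

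Of the study's 30-gene yolk sac endothelium signature 13 genes were compared, and 12 were called higher in HE-YSP and 0 in HE-AGM. The median log2 ratio was -6.59, or -5.84 with the genes at 0 set to their bound, and it was -6.48 relative to length with the same count called. As before, the signature was the study's own choice and not independent of the clusters. Mrc1, the mannose receptor, and Cd36, a fatty acid and lipoprotein receptor, had 107 and 86 counts in HE-YSP and 0 in HE-AGM, at least 71.0-fold and 57.1-fold lower there. Tcn2, the vitamin B12 carrier transcobalamin, was found in 40 HE-YSP cells and 21 HE-AGM cells, at 246 and 33.6 CPM. The exception among the 13 was Fmo1, at 54.4 CPM in HE-YSP and 5.41 CPM in HE-AGM, which was not lower in HE-AGM in run 2.

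An overlapping list of scavenger receptors and lysosomal proteases gave 8 genes higher in HE-YSP and 0 in HE-AGM among 9 compared, with a median log2 ratio of -3.26. Beside the receptors it held Ctsl (566 and 71.2 CPM in HE-YSP and HE-AGM), Lgmn (111 and 11.4 CPM) and Ctsb (56.2 and 11.1 CPM), all of them lysosomal proteases. Stab1, the relative of Stab2, was the exception, at 76.0 and 62.9 CPM. Of the 4 venous genes of the study 2 were compared and both were higher in HE-YSP: Aplnr, the apelin receptor, with 94 counts against 1, and Flrt2, at 52.6 and 15.6 CPM. Aplnr was positive in only 8 HE-YSP cells (median 0), with 80 counts in the early cluster b2 and 14 in b3. Flrt2 was positive in 19 HE-YSP cells and 11 HE-AGM cells. Nr2f2, the venous master regulator COUP-TFII, had 1 count in HE-YSP and 0 in HE-AGM.

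The leading 12 on the HE-YSP side also held Clec1b, Fcer1g and Car2, genes known from blood cells. Clec1b, the platelet receptor CLEC-2, ran from 0 to 1989 CPM over HE-YSP cells (median 360, 43 cells positive) and was found in 8 HE-AGM cells, a ratio of 56.5 (39.3 to 84.3). Fcer1g, the signalling chain of Fc receptors and of platelet glycoprotein VI, was positive in 33 HE-YSP cells (median 215 CPM) and 12 HE-AGM cells. Car2, the carbonic anhydrase of red cells, measured 202 and 4.81 CPM and was found in 39 and 8 cells. The levels of Clec1b, Fcer1g and Car2 in the yolk sac progenitor cluster p1 were 408, 484 and 465 CPM, in cluster p2 143, 463 and 330.4 CPM, and in HE-YSA 43.03, 12.1 and 21.5 CPM.

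Gchfr, a regulator of tetrahydrobiopterin synthesis, stood at 272 CPM in HE-YSP and 10.2 CPM in HE-AGM. Pde2a, a phosphodiesterase of cyclic nucleotides, was at 114 and 8.30 CPM, the small GTPase Gimap4 at 123 and 9.01 CPM, and Degs1, which makes ceramide, at 129 and 11.1 CPM. Relative to genes of like length, the log2 ratios of the 12 leading genes lay between -9.54 (Stab2) and -3.15 (Degs1).

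The progenitor signatures of the study were mixed. Of its 90 EMP genes 48 were compared, and the median log2 ratio was 1.20. Of these, 19 (39.6%) were called higher in HE-AGM and 5 (10.4%) in HE-YSP, beside 12.1% and 7.68% of all genes. Relative to length, 11 and 5 were called. Pdcd4, Itgb3 and Zfpm1 were among those higher in HE-AGM. Towards HE-YSP the called genes included Car2, Pf4, Spns1 and Vamp5. Pf4, platelet factor 4, was at 43.7 CPM in HE-YSP (13 cells) and 2.403 CPM in HE-AGM (2 cells). Megakaryocyte genes thus pointed in either direction, with Itgb3 higher in HE-AGM and Pf4 higher in HE-YSP.

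Of 67 LMP genes 20 were compared. Beside 12.1% and 7.68% of all genes, 7 (35%) were higher in HE-AGM and 1 (5%) in HE-YSP, or 3 and 1 relative to length. Those towards HE-AGM included Ccnd2, Hmgn3 and Tsc22d1 (295 and 43.7 CPM), while Sesn1, a stress-induced sestrin, was higher in HE-YSP at 85.5 and 17.4 CPM. The LMP genes Flt3, Il7r and Rag1 did not reach the level at which genes were compared. The shorter fate lists gave 0 calls among 4 EMP fate genes and, among 10 LMP fate genes, 1 higher in HE-AGM (H19) and 2 in HE-YSP (Cd53 and Itm2b). Relative to length, 2 LMP fate genes were higher in HE-AGM and 1 in HE-YSP. These 4 lists were chosen by the study on related cells and are not independent of the clusters. Among 10 myeloid and granule genes compared, 2 (20%, beside 7.68% of all genes) were higher in HE-YSP, Fcer1g and Arhgdib (850 and 280 CPM). Only Fcer1g was called relative to length. Lyz2 was at 82.0 CPM in HE-AGM and 92.7 CPM in HE-YSP.

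**Figure D4:**
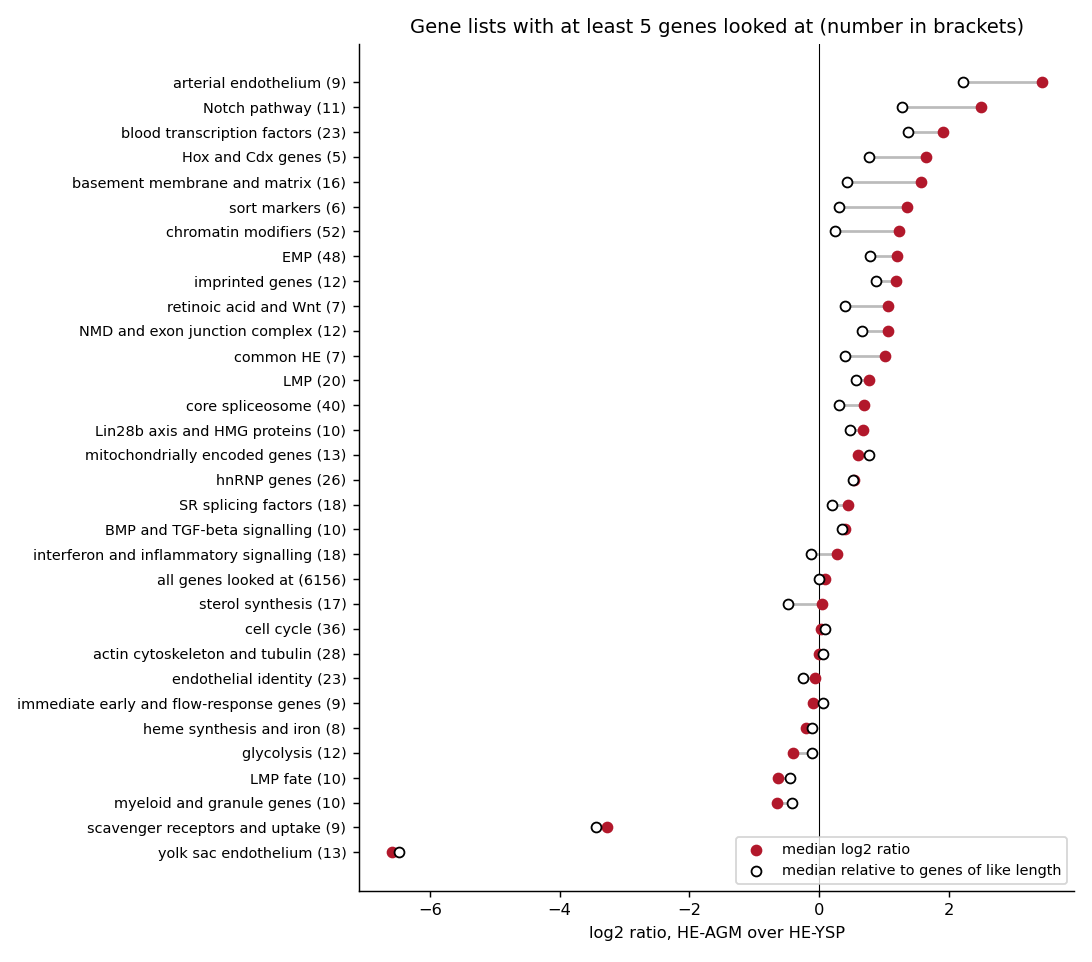
Each row is a gene list with at least 5 genes compared (number in brackets); filled points give the median log2 ratio of HE-AGM over HE-YSP and open points the median relative to genes of like length. The yolk sac endothelium (-6.59) and scavenger (-3.26) lists stand apart on the HE-YSP side, the arterial list (3.43) leads on the HE-AGM side, and with length taken into account the median of the matrix list goes from 1.57 to 0.43 and that of the chromatin list from 1.23 to 0.24.

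Imprinted genes include several regulators of fetal growth. Of 12 compared, 6 (50%) were called higher in HE-AGM, beside 12.1% of all genes, and 1 in HE-YSP, with 4 and 1 relative to length. H19, an imprinted long noncoding RNA, ran from 1313 to 11030 CPM over HE-AGM cells (median 4812) and from 0 to 4715 CPM over HE-YSP cells (median 790), a pooled ratio of 5.07 (4.83 to 5.33). Cdkn1c, the cell cycle inhibitor p57, was found in all 49 HE-AGM cells (97.7 to 2396 CPM, median 397) and in 13 HE-YSP cells. Its pooled ratio was 16.6 (12.5 to 22.4). Mest was the exception, at 641 CPM in HE-YSP and 169 CPM in HE-AGM. The levels of H19 and Cdkn1c in HE-YSA were 1897 and 103.4 CPM.

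Hmga2 and Igf2bp2, both targets of the fetal LIN28B and let-7 axis, were higher in HE-AGM at 478 and 63.4 CPM and at 129 and 17.3 CPM. Hmga1 was higher in HE-YSP, at 467 and 180 CPM, and lost its call relative to length. Of the Hox genes, which record position along the body axis, Hoxa9 was positive in 37 HE-AGM cells and 2 HE-YSP cells, at 77.5 and 3.59 CPM. HE-YSA also held it, at 80.3 CPM in 33 cells. Hoxa7 had 118 counts in HE-AGM and 1 count in HE-YSP, under the limit for comparison. Hoxb2 went the other way, at 13.8 CPM in HE-AGM and 44.9 CPM in HE-YSP, and Hoxb5, with 15 and 38 counts, was too low to be compared.

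Basement membrane and matrix genes were higher in HE-AGM, but much of this went with their length. Of 16 compared, 9 (56.25%) were called higher in HE-AGM and 1 (6.25%) in HE-YSP, beside 12.1% and 7.68% of all genes. Relative to length 3 and 1 were called, and the median log2 ratio went from 1.57 to 0.43. Fn1, fibronectin, ran from 571 to 4079 CPM over HE-AGM cells (median 1455) and from 0 to 485 CPM over HE-YSP cells (median 0, 20 cells positive), so that the 2 populations did not overlap. Its ratio was 25.9 (21.4 to 31.8), and its log2 ratio relative to length was 3.47. Lamb1, a laminin chain, and Fbn1, fibrillin 1, kept log2 ratios of 3.75 and 3.30 on that scale. Sparc, a matricellular protein, was the gene higher in HE-YSP, at 1657 and 424 CPM.

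Genes of RNA splicing are of interest here because the study compared isoform use between HE populations. The splicing lists were mostly flat, with a minority higher in HE-AGM. Of 40 core spliceosome genes compared, 10 were called higher in HE-AGM and 1 in HE-YSP, the same counts as relative to length, and the median log2 ratio went from 0.69 to 0.30. Of 26 hnRNP genes 7 were higher in HE-AGM (4 relative to length) and 0 in HE-YSP, and of 18 SR splicing factors and their regulators 3 (1 relative to length) and 0. These shares, 25%, 26.9% and 16.7%, stood beside 12.1% of all genes.

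Hnrnpa1, a repressor of exon inclusion, ran from 228 to 1669 CPM over HE-AGM cells (median 812) and from 0 to 300.2 CPM over HE-YSP cells (median 123), with a pooled ratio of 6.96 (6.05 to 8.07). Hnrnpl stood at 487 and 77.2 CPM, U2af2, which recognises the 3′ splice site, at 131 and 12.3 CPM, and Srsf3 at 147 and 38.7 CPM. Sf3b1, the branch point binding subunit, was the spliceosome gene on the HE-YSP side. It ran from 0 to 847 CPM over HE-YSP cells (median 377, 47 cells positive) and from 0 to 250.0 CPM over HE-AGM cells (median 20.4, 28 cells positive), a ratio of 10.2 (8.33 to 12.6) in favour of HE-YSP. The HE-YSA level of Sf3b1 was 399 CPM and that of c5 was 23.8 CPM, so each stood near the HE population of the same tissue and cDNA project.

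The same held for Upf1, the helicase of nonsense-mediated decay, at 134 CPM in HE-AGM and 7.78 CPM in HE-YSP, with 122 CPM in c5 and 8.397 CPM in HE-YSA. U2af2 was at 125 CPM in c5 and 16.5 CPM in HE-YSA. Whether these levels follow tissue or project cannot be told apart. The nonsense-mediated decay and exon junction list as a whole had 2 of 12 genes higher in HE-AGM (Upf1 and Rbm8a) and 1 in HE-YSP (Pnn). These shares, 16.7% and 8.33%, were near the 12.1% and 7.68% of all genes. Chromatin modifiers, which have long transcripts, had 14 of 52 genes (26.9%) higher in HE-AGM and 0 in HE-YSP. Relative to length these counts were 4 and 0, beside 9.23% and 6.03% of all genes, and the median log2 ratio went from 1.23 to 0.24. Among those 4, Ezh2, the Polycomb methyltransferase, was at 129 and 17.9 CPM, and Setd1b, an H3K4 methyltransferase, at 116 and 12.6 CPM.

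Cytoskeletal genes split by family member. Of 28 compared, 5 (17.9%) were called higher in each population, beside 12.1% and 7.68% of all genes. The same genes were called relative to length. Tuba1b, an alpha-tubulin, stood at 820 CPM in HE-AGM and 99.7 CPM in HE-YSP, Tubb4b at 110 and 14 CPM and Myl9 at 99.8 and 3.04 CPM. Actg1, cytoplasmic gamma-actin, had a median of 104.9 CPM over HE-AGM cells (highest 1003) and ran from 119 to 1785 CPM over HE-YSP cells (median 651), and Myl6 and Tubb3 were also higher in HE-YSP. Many genes of these families have processed pseudogenes and close paralogs, among which the authors' counting could divide reads, so their levels are uncertain.

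Among 36 cell cycle genes 6 (16.7%) were higher in HE-AGM and 0 in HE-YSP (5 and 0 relative to length), beside 12.1% and 7.68% of all genes. Their median log2 ratio was 0.03, near that of all genes. Mki67 measured 71.8 and 5.98 CPM and Tk1 75.8 and 14.4 CPM. In glycolysis, the glucose transporter Slc2a1 was higher in HE-AGM (281 and 71.8 CPM). The enzymes Eno1 (404 and 110 CPM) and Tpi1 (135 and 48.2 CPM) were higher in HE-YSP, among 12 glycolysis genes compared. The calls were 8.33% and 16.7% of the 12 towards HE-AGM and HE-YSP, beside 12.1% and 7.68% of all genes. Relative to length, 2 glycolysis genes were called in each direction. Of the 13 mitochondrially encoded genes mt-Nd2 and mt-Nd4l (15.4%) were called higher in HE-AGM, near the 12.1% of all genes. The retinoic acid genes Cyp26b1 (196 and 29.3 CPM) and Aldh1a3 (58.2 and 12.6 CPM) were higher in HE-AGM. They were 28.6% of the 7 genes compared in the retinoic acid and Wnt list, beside 12.1% of all genes. Calls towards HE-AGM and HE-YSP numbered 2 and 1 of 17 sterol synthesis genes and 1 and 0 of 8 heme and iron genes. They numbered 1 and 2 of 18 interferon and inflammatory genes and 2 and 0 of 10 BMP and TGF-beta genes. For immediate early genes they were 2 and 1 of 9 (22.2% and 11.1%). Over all genes the shares were 12.1% and 7.68%, and with so few genes compared no list is read as differing.

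The calls were not spread evenly over kinds of genes. Among 4791 protein-coding genes 610 (12.7%) were higher in HE-AGM and 227 (4.74%) in HE-YSP, and among 367 long noncoding RNA genes 108 (29.4%) and 19 (5.18%). Pseudogenes went the other way, with 25 of 962 (2.60%) higher in HE-AGM and 223 (23.2%) higher in HE-YSP. Processed pseudogenes took 16.6% of all counts in HE-AGM and 25.2% in HE-YSP. The share was 24.8% in HE-YSA and 19.6% in c5. Reads that fit a pseudogene and its parent gene cannot be told apart in these values.

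Early and late clusters differed within each population, and some plexus genes came from the early cluster alone. All 723 Stab2 counts of HE-YSP were in the early cluster b2, where the gene stood at 850 CPM, and the late cluster b3 had 0. Lyve1 stood at 911 CPM in b2 and 414 CPM in b3, Npl at 637 and 278 CPM and Cldn5 at 2008 and 302 CPM. In HE-AGM the arterial genes were higher in the early cluster: Gja5 stood at 450 CPM in c3 and 26.6 CPM in c4, Efnb2 at 212 and 40.99 CPM and Hey1 at 141 and 51.1 CPM. Itgb3, at 176 and 352 CPM, and Runx1, at 44.9 and 111 CPM, were higher in c4.

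The ratio between the populations nevertheless had the same sign in both phases for the called genes that the naming rule chose and that are reported here. Hey1 was at 0 in b2 and in b3, and Lyve1 had a log2 ratio of -10.20 between the early clusters and -7.00 between the late ones. For Fcer1g the log2 ratio was -7.95 early and -3.19 late, with 3 counts in c3 and 48 counts in c4. Gata2 stood at 104.7 and 97.8 CPM in c3 and c4 and at 5.88 and 18.3 CPM in b2 and b3.

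Isoform use was compared as the share of a gene's estimated counts assigned to each transcript. Genes entered with at least 2 transcripts above 0, at least 50 counts in each population and at least 10 counts in each population and run, and were called when a transcript's share differed by more than 10 percentage points pooled and in each run, in the same direction. Of 2577 genes 710 (27.6%) were called. Between HE-YSA and HE-YSP, which share a cDNA project, 98 of 2373 genes (4.13%) were called, and between HE-AGM and c5 88 of 2484 genes (3.54%). Isoform calls and level calls overlapped at about the share found over all genes. Of the 710 genes 67 (9.44%) were also called for level, against 9.90% of all 2577 genes. These 67 were 26.3% of the 255 genes called for level, against 27.6% of all genes called for isoforms.

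The called isoforms differed in length and completeness. The 620 transcripts with a larger share in HE-AGM had a median length of 1945 bases, and the 549 with a larger share in HE-YSP one of 860 bases, against 1357 bases over all 7088 transcripts with a share above 10% in either population. Of those higher in HE-YSP 168 (30.6%) are models marked in GENCODE M21 as incomplete at the 3′ end, compared with 13 (2.10%) of those higher in HE-AGM and 9.72% of all. In 1825 of 2470 protein-coding genes (73.9%) the mean isoform was longer in HE-AGM. Between HE-YSA and HE-YSP it was longer in HE-YSA for 48.9% of the same genes.

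Over all transcripts, models with an incomplete 3′ end took 3.55% of counts in HE-AGM and 6.79% in HE-YSP, 6.83% in HE-YSA and 3.37% in c5. In 46 of 49 HE-AGM cells this share was below that of the lowest HE-YSP cell. The HE-YSA cell from project GL43 had 6.82%, and the 5 HE-AGM cells of that project had 2.60% to 3.60%. Again only 1 yolk sac cell of that project was kept, and tissue and project were not separated. Without models marked incomplete at either end, an alternative chosen after seeing the data, 498 of 2235 genes (22.3%) were called.

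Actb, cytoplasmic beta-actin, shows the pattern at high counts. The full transcript Actb-201 took 88.0% (95% interval 87.6 to 88.3) of 29648 counts in HE-AGM and 42.04% (41.3 to 42.8) of 18390 counts in HE-YSP, with 85.9% to 89.0% and 36.4% to 50.05% in single runs. The short model Actb-208, which has a start codon and no stop codon, took 1.4996% and 35.96%. In c5 the shares of Actb-201 and Actb-208 were 89.3% and 1.21%, and in HE-YSA 42.1% and 36.8%. Actb, Sf3b1 and the sequences below were chosen after their values were seen.

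Such models end inside the full transcript, and the bases around that point are given for 4 called genes, because they mark where the short and the full model part. Capitals are the last 15 bases of the short model and lower case the next 15 bases of the full transcript, 5′ to 3′ on the transcript strand, from GENCODE M21 (GRCm38).
Actb-208 in Actb-201 (chr5:142904351-142905821, minus strand): CTTTTCCAGCCTTCCttcttgggtatggaa
Prdx2-204 in Prdx2-201 (chr8:84969857-84971621, plus strand): AGTCAATGACCTACCtgtgggacgctctgt
Atp2b1-207 in Atp2b1-201 (chr10:98914406-98987122, plus strand): TGACATTACTGTTGGagacattgcccaagt
Wdr75-206 in Wdr75-201 (chr1:45795507-45803929, plus strand): ACAAGCCAGGACGTGgaagctagacagctc

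After these points 1016 bases of Actb-201, 906 of Prdx2-201, 6049 of Atp2b1-201 and 2174 of Wdr75-201 remain. The coordinates are those of the short models, which hold 3, 4, 4 and 5 exons against 6, 6, 21 and 21 in the full ones. A count on a short model says only that its letters fitted a read best, not where the RNA ended.

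The 12 genes with the largest differences mostly followed this form. Sertad2, a transcriptional coregulator, had 88.9% of its 72 HE-YSP counts on the 3′-incomplete model Sertad2-202 (79.3 to 95.1) and 1.90% of 158 counts in HE-AGM, where Sertad2-201 and Sertad2-203 took equal shares of 49.1%. Such equal shares can arise where the estimate divides reads that fit 2 transcripts alike, which was not tested here. For Cnot6, a deadenylase subunit, the 5736-base transcript Cnot6-203 took 94.5% in HE-AGM and 14.6% in HE-YSP. Atp2b1, a calcium pump, had 94.6% of its HE-YSP counts on the short Atp2b1-207 and 17.3% of its HE-AGM counts, where the full Atp2b1-201 took 68.8%.

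Prdx2, a peroxidase abundant in red cells, had 88.1% (83.7 to 91.3) of 306 HE-YSP counts on Prdx2-204 and 21.6% (19.1 to 24.3) of 980 HE-AGM counts. Most of the rest in HE-AGM lay on Prdx2-205, an intron-retaining model of 549 bases (76.7% and 11.6%). It is shorter than the 825-base Prdx2-204, so in Prdx2 the longer model did not lead in HE-AGM. Wdr75, a ribosome assembly factor, had 72.7% and 6.46% on Wdr75-206 in HE-YSP and HE-AGM, and Pdlim1, a LIM protein bound to actin, 72.0% and 5.99% on Pdlim1-202. The full Vdac1-202, of the mitochondrial outer membrane channel, took 94.3% in HE-AGM and 29.6% in HE-YSP. Rhoj, an endothelial small GTPase, had 84.2% on the coding Rhoj-201 in HE-AGM and 16.03% in HE-YSP, where Rhoj-205, a model of the nonsense-mediated decay type that is incomplete at its start, took 83.97%, so that without incomplete models no difference was left. Mtrex ran counter as well, since the full Mtrex-201 took 91.2% in HE-YSP and 17.7% in HE-AGM. In HE-AGM the 498-base Mtrex-202 took 79.2%.

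In most of these genes HE-YSA stood near HE-YSP and c5 near HE-AGM. The share of Sertad2-202 was 87.6% in HE-YSA and 0% in c5, that of Rhoj-201 15.9% and 100%, and that of Atp2b1-207 92.6% and 29.3%. Tbp-210, of the TATA-binding protein, was an exception, with 76.1% in HE-YSP, 22.5% in HE-YSA and 8.70% in HE-AGM. Tmem94-204 was another, with 75.3%, 37.8% and 9.65%. For 6820431F20Rik, a noncoding gene, the transcript 6820431F20Rik-209 took 78.97% in HE-AGM, 12.9% in HE-YSP and 29.9% in HE-YSA.

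**Figure D5:**
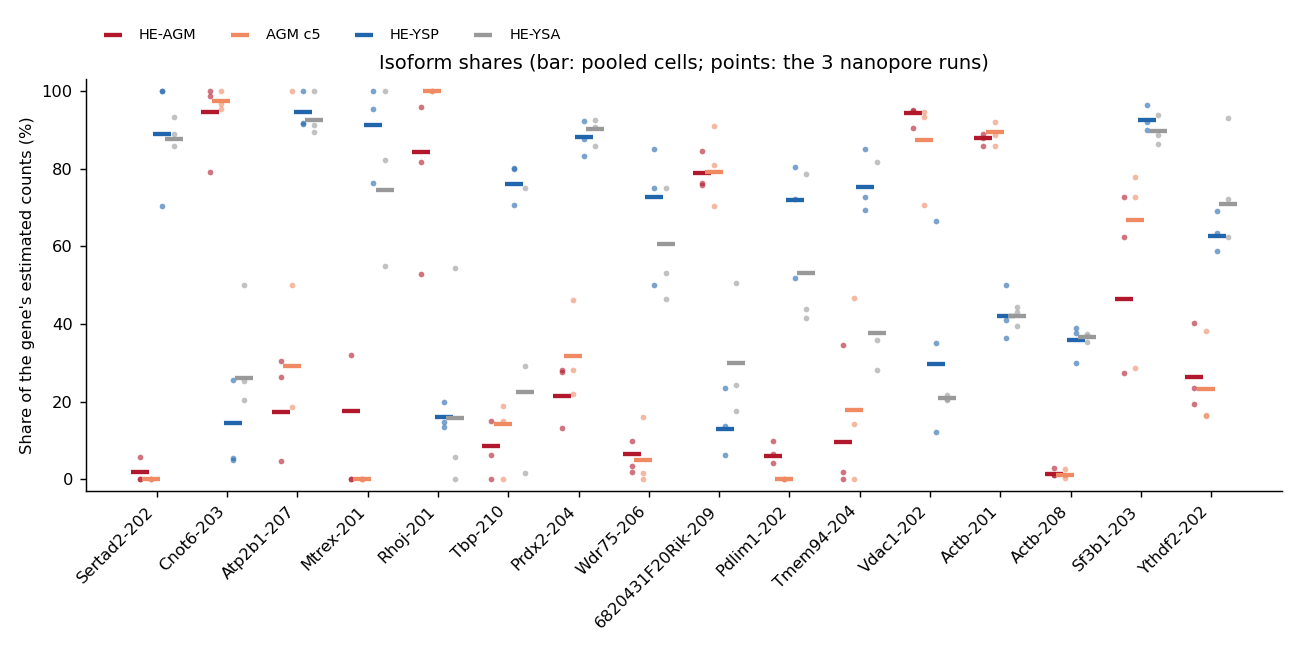
For 16 transcripts, the percent of the gene's estimated counts in HE-AGM, AGM c5, HE-YSP and HE-YSA; bars are pooled cells and points the 3 nanopore runs. HE-YSA lies near HE-YSP and c5 near HE-AGM for most of them, with Tbp-210 and Tmem94-204 between; Actb-201 stands at 88.0% in HE-AGM and 42.04% in HE-YSP.

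Genes of splicing and chromatin were called for isoform use at 7 of 18 SR factors (38.9%), 9 of 20 hnRNP genes (45%), 12 of 29 core spliceosome genes (41.4%) and 4 of 24 chromatin modifiers (16.7%), beside 27.6% of all genes. The SR genes were Srpk1, Srrm1, Srsf11, Srsf4, Srsf5, Srsf6 and Tra2b. The hnRNP genes were Hnrnpa3, Hnrnpc, Hnrnpdl, Hnrnph2, Hnrnpk, Hnrnpr, Ptbp1, Ptbp3 and Raly. In the core spliceosome they included Bcas2, Ddx39b, Ddx5, Eftud2, Luc7l, Rbm25, Sf3a2, Sf3b1, Sf3b6, Snrnp70 and Snrpa. Eif4a3 and Rnps1 were called among 5 genes of decay and the exon junction complex, and Dnmt3a, Hdac1, Kdm5c and Smarce1 among chromatin modifiers. No difference in these shares from the rest of genes was tested.

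Sf3b1-203, an intron-retaining model of 10 of the 25 exons, took 92.5% (90.02 to 94.5) of 584 HE-YSP counts and 46.5% (37.1 to 56.1) of 114 HE-AGM counts, so the higher Sf3b1 level in HE-YSP lay on a model that does not encode the whole protein. Sf3b1-201, the coding transcript, took 0 of the HE-YSP counts, which allows a share of up to 0.63%, and 21.5% in HE-AGM. Snrnp70-204, a nonsense-mediated decay model of the gene for the U1 70K protein, took 59.7% in HE-YSP and 2.73% in HE-AGM. The incomplete Hnrnpk-214 took 26.6% and 3.98%, and Eif4a3-202 61.7% and 20.05%.

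The study plotted the isoforms of Rpl34, Arglu1, Ythdf2, Pfn1 and Runx1. Ythdf2, a reader of methylated adenosine in RNA, was called: the intron-retaining Ythdf2-202 took 62.6% (51.7 to 71.5) in HE-YSP, 70.9% in HE-YSA and 26.5% (20.9 to 32.99) in HE-AGM. Pfn1-201 took 98.6% and 98.4% in HE-AGM and HE-YSP, Arglu1-204 95.7% and 91.6% and Rpl34-201 60.6% and 55.01%, and these 3 genes were not called. Runx1 had too few HE-YSP counts to be compared. Of its 242 HE-AGM counts 77.7% (71.9 to 82.8) lay on Runx1-201 and 9.92% on Runx1-202, and of its 17 HE-YSP counts 0% and 70.6% (44.04 to 89.7). Runx1-201 also reaches further at its 3′ end, so a count on it need not come from a read that reached its start.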

How the data were processed

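Single cells were sorted, amplified by Smart-seq2 and read on a nanopore sequencer (PromethION P2 Solo) in 3 runs. The authors basecalled with Dorado, trimmed reads with bbduk, removed chimeras with YACRD and porechop, aligned to GENCODE transcripts with Minimap2 with several alignments kept per read, and estimated transcript abundance with NanoCount. The submitters' processing notes name minimap2 2.26, R 4.3.0 and DESeq2 1.40.2 without giving their role. The estimated counts deposited by the authors (278369 transcripts of 78317 genes in 221 cells) were used as deposited, with no rounding; because NanoCount divides reads between similar transcripts, values for isoforms, paralogs and pseudogenes are uncertain. A table of TPM values was not used. Files of short reads were not used here.

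Cells were grouped by their labels and kept above a library limit of 17595 counts, the median total of 38780 less 1 scaled median absolute deviation (scale 1.4826). Transcripts were summed by gene and cells by population, and CPM was taken over that sum. Ratios carried 0.5 added counts; a gene needed a mean CPM of 20 and a log2 ratio of 1 pooled and in each run. Exact Poisson or Clopper-Pearson 95% intervals were computed from estimated counts and cover counting error only, since amplified reads without molecular identifiers are not independent molecules. A cell was counted as positive at 1 estimated count (tolerance 0.001). Populations at 0 were given a limit of 3 counts. No test was run, because each population is 1 sample. Transcript lengths were those given with the deposited counts. End tags, exon numbers, coordinates and sequences came from GENCODE M21 (GRCm38). They were matched by transcript identifier without version, and length was checked only for the models whose sequences are printed. Transcripts holding 89.6% of HE-AGM and 92.0% of HE-YSP counts were matched by identifier. Statistics were tested on simulated data.

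The members and the 40 gene lists (915 symbols, 8 not matched) were chosen with earlier results of these data known. Named genes were the common HE and sort marker lists; the 12 protein-coding genes with the largest ratio each way among called genes with a mean CPM of 50, without ribosomal protein genes and unnamed gene models; up to 4 called members per list and direction, with members needed to say what a list is; the 12 genes with the largest isoform difference and 5 genes whose isoforms the study plots; and called splicing and chromatin genes. Names outside this rule (Actb, Sf3b1 isoforms other than those called, Stab1, Fmo1, low genes given by counts) were chosen after their values were seen. A few genes that the rule or the lists hold are not reported here. Alternatives covered cell limit, scaling, low-value filters, fold limit, runs, added counts, clusters, stage, cDNA project and depth. All steps ran in Python 3.11.15, with pandas 2.3.3 for tables, scipy 1.17.1 for intervals, numpy 2.4.6 for sums and matplotlib 3.10.9 for plots.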

Additional observations from a re-analysis of the deposited data

Results flagged for a closer look

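Cep55, which encodes a midbody protein of the last step of cell division, differed in direction between early and late clusters. Between the early clusters it stood at 48.5 CPM in HE-AGM (94 counts) and 16.5 CPM in HE-YSP (14 counts), a log2 ratio of 1.52, and between the late clusters at 6.47 CPM (9 counts) and 47.5 CPM (39 counts), a log2 ratio of -2.82. The early ratio exceeded the late one by 4.33 on the log2 scale. The ratio pointed the same way in each of the 3 runs, from 1.28 to 1.72 early and from -3.15 to -2.31 late. It was singled out as the 1 gene, of 5350 compared in both phases, that was called in opposite directions, and the difference between phases was not tested. The counts in late HE-AGM cells and early HE-YSP cells are small.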

How the results depend on the processing

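The counts of genes higher in HE-AGM and in HE-YSP (747 and 473) moved by over 1.5 times with the low-value filter (1454 and 761 at a mean CPM of 5, 183 and 178 at 100), with a log2 limit of 2 (220 and 102), and where the runs were not required together: 1542 and 914 on the pooled ratio alone, and 1412 and 997, 1487 and 1120, and 1810 and 1227 in runs 1, 2 and 3 alone. Among protein-coding genes 227 were higher in HE-YSP. Totals without ribosomal protein genes and processed pseudogenes gave 758 and 677 of 7309 genes, a more even split. The other alternatives for gene counts stayed within 1.5 times, among them HE-AGM cells of GL34 only (716 and 470), 26 cells a population with totals from 30000 to 60000 (751 and 470, runs 1 and 2 only), thinned HE-AGM cells (744 and 442), HE-YSP cells of E10.5 only (639 and 390) and 5 counts added (501 and 466).

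The isoform count of 710 of 2577 genes went to 473 of 1736 with 100 counts required, 307 with a difference above 20 percentage points, 1668 of 2911 on the pooled difference alone, 382 of 1617 among protein-coding transcripts and 371 of 1557 with HE-YSP cells of E10.5 only. In the pooled early and late clusters 984 of 1746 and 935 of 1663 genes were called. Of the log2 ratios of named genes that were called, 1 changed sign, that of Tie1 at -0.09 relative to genes of like length. Among the called named genes and the named isoforms under all alternatives, 1450 log2 ratios and 190 differences in share moved by less than their counting error, and 437 and 35 moved by more. Fewer genes, samples or runs enter by construction where a filter or run is changed; for the rest the cause was not tested. No paired analysis was possible because each population is 1 sample and no result comes from a test. Depth limits genes with few HE-YSP counts, such as Runx1, and with a median of 33297 counts per cell a 0 in a single cell does not show absence.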
